A study of Mus musculus with 19 samples.

Results

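Heat shock proteins and the cytosolic chaperones that work with them were followed in kidneys of fasted and ad libitum fed male mice of different age. The group holds 41 listed genes, chosen by name for their role in protein folding, with earlier results of these data known. Where several probe sets name a gene alone, the brightest, by its mean over the 19 arrays, stands for the gene. In this way 36 of the 41 genes were measured, out of 17097 genes with such a probe set. Hspa1a, Hsp90ab1, Hspd1, Fkbp4 and Hsf1 were not analysed here. Probe sets of Hspa1b can also bind the nearly identical Hspa1a transcript, so its level cannot be told apart from that of Hspa1a.

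The kidneys came from 5 aged-overweight fasted mice (mouse33, 38, 39, 41 and 42), 5 aged-overweight ad libitum fed mice (mouse34, 36, 37, 40 and 43), 4 young-lean fasted mice (mouse339, 340, 343 and 344) and 5 young-lean ad libitum fed mice (mouse346 to 350). Values of a group are given in this order of mice. The aged mice were F1 hybrids of FVB and C57BL/6J of 73 weeks and about 47 g on average. The young mice, of strain C57BL/6J, were 10 to 14 weeks old and weighed 22 to 25 g. None carried a transgene or had undergone renal ischemia-reperfusion injury. Fasting lasted 3 days with water at hand. What is named here after age cannot be told apart from strain and weight, which change along with it.

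Frozen parts of both kidneys gave the RNA of a mouse, with 1 array (Affymetrix HT MG-430 PM) for each, and all levels are log2 values on which a difference of 1 is a doubling. Array medians lay between 3.44 and 3.49 in aged and between 4.15 and 4.21 in young mice. Because of this offset, levels were compared between diets within an age only. Renal markers were strongly present in every mouse: Umod, the urinary protein of the thick ascending limb, averaged 12.6 in aged fasted, 12.5 in aged ad libitum fed, 13.0 in young fasted and 13.1 in young ad libitum fed kidneys. In these whole-tissue samples fewer cells of a type and less RNA per cell cannot be told apart.

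Chaperones bind unfolded stretches of other proteins and keep them from clumping until they fold. HSP70 proteins do so in cycles of ATP use that J-domain proteins start and nucleotide exchange factors such as the HSP110 proteins and BAG proteins end. HSP90 takes over partly folded clients such as kinases and steroid receptors through adaptor co-chaperones, the ring-shaped TRiC complex encloses actin and tubulin, and small heat shock proteins hold unfolded proteins without ATP. Many of these genes are transcribed by heat shock factor 1, which binds repeats of a short motif, the heat shock element, upon heat and other protein damage. In the kidney several of them are abundant in the inner medulla, where cells live in concentrated salt and urea.

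Fasting was followed by lower levels of many chaperone transcripts in young kidneys and of few in aged kidneys. In young fasted mice 14 of 36 genes fell and 4 rose relative to young ad libitum fed mice, counting an adjusted p of at most 0.05 in limma, adjusted over every probe set by Benjamini-Hochberg. At an unadjusted p under 0.05 it was 22 of 36, against 34.4% of all genes. Over all 17097 genes 12.5% fell and 10.7% rose in that comparison. A fall of at least 1.5-fold was found for 7 of the 36 genes (Hsph1, Hsp90aa1, Dnaja1, Dnaja4, Dnajb1, Stip1 and Chordc1), against 3.53% of all genes, and a rise of that size for 0 of 36, whatever the p, against 2.95% of all genes that passed. The median change of the 36 genes was -0.12 on the log2 scale, against -0.01 over all genes. All young fasted mice lay below all young ad libitum fed mice for 14 of the 36 genes (11.4% of all genes) and above them for 5 of 36 (9.9% of all genes).

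In aged fasted mice 1 of the 36 genes rose (Dnajb4) and 1 fell (Ahsa1) relative to aged ad libitum fed mice, where 4.32% of all genes rose and 4.84% fell. No measured chaperone gene passed with a fold change of at least 1.5 in aged mice, where 1.39% of all genes rose and 1.28% fell by that much. The largest rise was 0.47 and the largest fall 0.44 on the log2 scale, and 9 of 36 genes had an unadjusted p under 0.05, against 23.7% of all genes. The median change of the 36 genes was -0.01, against -0.01 over all genes. All aged fasted mice lay above all aged ad libitum fed mice for 1 of 36 genes (Cct4; 4.66% of all genes) and below them for 2 of 36 (Dnajb6 and Cct3; 5.52% of all genes).

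**Figure D1:**
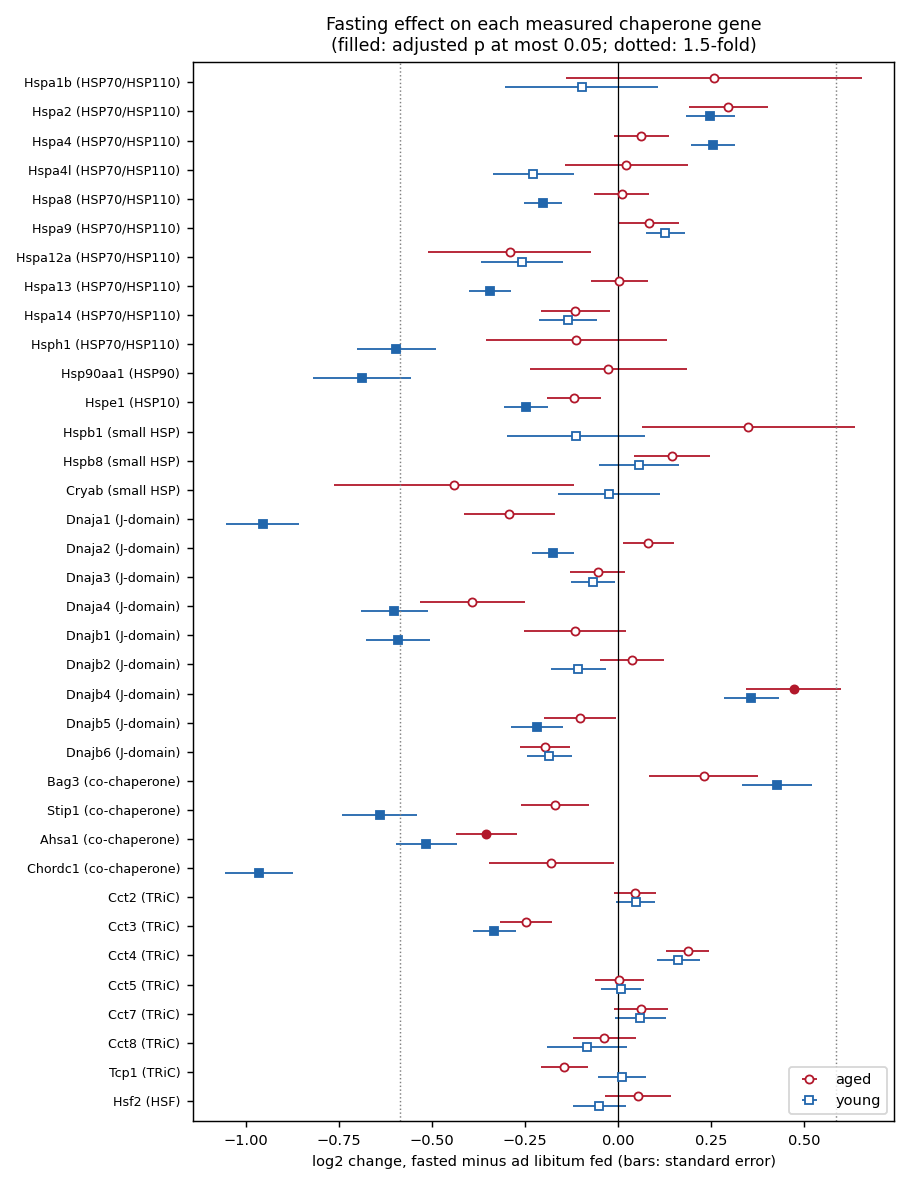
Change of each measured chaperone gene with fasting (log2 level in fasted minus ad libitum fed mice, horizontal axis) in aged (red circles) and young (blue squares) mice, with bars of 1 standard error. Filled symbols have an adjusted p of at most 0.05 and dotted lines mark a 1.5-fold change; 7 genes lie beyond the left line in young mice and none does in aged mice.

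Sequence near the transcription start was examined because the heat shock element is the shared regulatory motif of this family. Of the 41 listed genes, 33 were found in a RefSeq table of promoter windows of GRCm38.p6, each with 250 bases before and 50 bases after a start site. A run of 3 units was searched as GAANNTTCNNGAA or TTCNNGAANNTTC on both strands, and a run of 2 units as GAANNTTC or TTCNNGAA, which every 3-unit match also holds. A 3-unit match stood in a window of 5 of the 33 genes (15.2%: Hsph1, Hspd1, Hspe1, Dnajb6 and Chordc1), against 0.662% of the 27025 genes of the table. A 2-unit match stood in a window of 16 of the 33 genes (48.5%), against 17% of all genes. The windows of Hspd1 and Hspe1 lie head to head on opposite strands and share the same matches.

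The windows of 3 genes with 3-unit matches that fell in young fasted mice are shown first, because a long match and a called fall meet in them. A window of Dnaja1, with the clearest difference between the ages, and that of Hspa1b, the classical heat-inducible HSP70 gene, follow for contrast. Each of these holds a 2-unit match only. All are given 5′ to 3′ on the strand of the gene, and capitals mark the 3-unit matches, or in Dnaja1 and Hspa1b the 2-unit match. In Chordc1 (chr9:18292017-18292316, plus strand) 3 overlapping matches begin at bases -4, 2 and 7 from the start site. In Hsph1 (chr5:149636266-149636565, minus strand) 1 match begins at base 16, and in Hspe1 (chr1:55087898-55088197, plus strand) 2 overlapping ones begin at -89 and -84. The window shown of Dnaja1 is chr4:40722218-40722517 on the plus strand and that of Hspa1b chr17:34959189-34959488 on the minus strand. The further windows of Dnaja1, chr4:40722672-40722971 and chr4:40722680-40722979, hold no match.
Chordc1: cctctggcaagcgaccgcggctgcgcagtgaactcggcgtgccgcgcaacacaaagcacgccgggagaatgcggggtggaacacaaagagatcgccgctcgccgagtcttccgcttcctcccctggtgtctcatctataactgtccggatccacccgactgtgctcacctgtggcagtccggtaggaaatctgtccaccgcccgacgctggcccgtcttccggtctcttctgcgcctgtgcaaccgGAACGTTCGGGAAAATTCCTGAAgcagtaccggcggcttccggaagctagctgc
Hsph1: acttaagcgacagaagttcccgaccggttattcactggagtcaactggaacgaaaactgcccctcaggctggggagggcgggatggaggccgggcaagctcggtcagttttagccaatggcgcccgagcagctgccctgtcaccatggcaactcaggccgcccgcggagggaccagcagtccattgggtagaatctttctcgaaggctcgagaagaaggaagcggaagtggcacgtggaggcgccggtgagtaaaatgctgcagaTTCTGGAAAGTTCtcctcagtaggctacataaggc
Hspe1: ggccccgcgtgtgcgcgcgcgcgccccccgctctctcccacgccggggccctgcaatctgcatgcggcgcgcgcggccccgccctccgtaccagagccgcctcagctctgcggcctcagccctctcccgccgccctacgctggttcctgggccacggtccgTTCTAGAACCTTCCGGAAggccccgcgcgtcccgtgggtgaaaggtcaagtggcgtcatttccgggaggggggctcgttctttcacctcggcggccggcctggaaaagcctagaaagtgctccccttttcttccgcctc
Dnaja1: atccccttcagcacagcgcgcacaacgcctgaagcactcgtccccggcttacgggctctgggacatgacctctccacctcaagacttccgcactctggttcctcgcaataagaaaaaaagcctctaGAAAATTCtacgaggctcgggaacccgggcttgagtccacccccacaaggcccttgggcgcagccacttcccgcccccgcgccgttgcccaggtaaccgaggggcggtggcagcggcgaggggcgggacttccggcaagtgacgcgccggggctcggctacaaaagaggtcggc
Hspa1b: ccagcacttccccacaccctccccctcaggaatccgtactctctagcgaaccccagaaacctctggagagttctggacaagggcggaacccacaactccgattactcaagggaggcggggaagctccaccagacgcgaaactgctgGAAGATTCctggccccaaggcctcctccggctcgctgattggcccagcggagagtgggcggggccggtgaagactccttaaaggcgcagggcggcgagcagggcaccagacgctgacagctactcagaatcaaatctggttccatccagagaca
Of the 14 genes that fell in young mice, 11 were in the table, with a 3-unit match in 3 and a 2-unit match in 5. Of the other 22 measured genes, 19 were in the table, with a 3-unit match in 1, Dnajb6, and a 2-unit match in 8. Dnajb6 lay just outside the threshold in young mice (adjusted p = 0.0521 by limma), so this split depends on the threshold. Dnajb1, Stip1 and Ahsa1 fell in young mice and held no match in their windows. A match of letters is a description of these windows and does not show that a factor binds there.

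Among the HSP70 and HSP110 genes, 3 of the 10 measured fell and 2 rose in young fasted mice, where 12.5% of all genes fell and 10.7% rose. None passed in aged mice, where 1 (Hspa2) had an unadjusted p under 0.05, against 23.7% of all genes. Hspa8 encodes the constitutive HSP70 of the cytosol. It had levels of 12.62, 12.71, 12.66 and 12.67 in young fasted mice, against 12.92, 12.87, 12.85, 12.84 and 12.84 in young ad libitum fed mice. The groups did not overlap and Hspa8 fell by 0.20 ± 0.05 (SE; adjusted p = 0.0161 by limma), a change of small size. In aged mice it was 12.56, 12.65, 12.60, 12.62 and 12.82 after fasting and 12.64, 12.61, 12.71, 12.49 and 12.74 in ad libitum fed mice. These groups overlapped almost fully (0.01 ± 0.07, adjusted p = 0.966 by limma).

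Hsph1, an HSP110 protein that exchanges the nucleotide of HSP70, changed more. Its levels were 9.46, 9.09, 9.22 and 9.09 in young fasted mice, against 10.09, 9.81, 9.85, 9.73 and 9.58 in young ad libitum fed mice. All fasted mice lay below all ad libitum fed mice, and Hsph1 fell by 0.60 ± 0.11 (SE; adjusted p = 0.00215 by limma). In one fit over the arrays of both ages, which share an estimate of the spread, this adjusted p was 0.0646. In aged mice Hsph1 was 9.00, 10.10, 8.85, 10.06 and 10.11 after fasting and 9.79, 9.75, 9.91, 9.46 and 9.77 in ad libitum fed mice. Thus 3 aged fasted mice lay above and 2 below every aged ad libitum fed mouse, and the mean change was -0.11 ± 0.24 (SE; adjusted p = 0.869 by limma).

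Hspa1b, which is induced by heat and other stress through heat shock factor 1, did not pass in either age. Levels were 8.47, 10.46, 8.51, 10.29 and 10.23 in aged fasted mice, against 9.92, 9.26, 9.59, 8.73 and 9.16 in aged ad libitum fed mice. The aged fasted mice again split to both sides of the ad libitum fed mice, with a mean change of 0.26 ± 0.40 (SE; adjusted p = 0.805 by limma). In young mice Hspa1b was 9.27, 8.31, 8.55 and 8.11 after fasting, against 9.09, 8.56, 8.49, 8.60 and 8.55 in ad libitum fed mice. Here 1 fasted mouse lay above and 2 below all ad libitum fed mice (-0.10 ± 0.21, adjusted p = 0.823 by limma).

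Of the other HSP70 genes, Hspa13, a microsomal member, fell by 0.34 ± 0.06 in young fasted mice (adjusted p = 0.0013 by limma). Hspa2, known for its role in sperm formation, rose by 0.25 ± 0.07 (adjusted p = 0.0217), a call that was lost without young fasted mouse343 (adjusted p = 0.0635) or mouse344 (adjusted p = 0.0598). Hspa4l, Hspa9 (the mitochondrial HSP70), Hspa12a and Hspa14 did not pass in young mice, with changes of -0.23, 0.13, -0.26 and -0.14 on the log2 scale.

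Hspa4, another HSP110 gene, gave opposite answers at different probe sets. Its brightest probe set had a mean of 9.90 in young fasted mice, against 9.64 in young ad libitum fed mice. It rose by 0.26 ± 0.06 (adjusted p = 0.0093 by limma). The next 2 probe sets had means of 8.27 and 6.53 in young fasted mice, against 9.65 and 7.97 in young ad libitum fed mice. They fell by 1.38 ± 0.12 and 1.43 ± 0.15 (adjusted p = 2.3e-05 and 7.48e-05), and the mean over the 3 probe sets fell by 0.85. The direction of Hspa4 in young mice therefore depends on the probe set read.

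The same comparison for all members covered 53 further probe sets of the 26 genes with more than 1. In young mice 16 of the 53 passed, of which 11 had the sign of a brightest probe set that also passed and 5 had the opposite sign to the brightest (2 of Hspa4, 2 of Cct4 and 1 of Dnajb6). Cct4, a TRiC subunit, is a second gene with opposed probe sets: the brightest changed by 0.16 ± 0.06 (adjusted p = 0.0732 by limma) and the others fell by 0.76 and 0.58 (adjusted p = 0.00062 and 0.0102). The brightest had a mean level of 10.56 over all arrays, and the 2 that fell were dim, with means of 5.15 and 3.56. Of the 3 further probe sets of Hspa8, 2 fell by 0.36 and 0.41 in young mice and the dimmest changed by 0.06 ± 0.70. With the mean over its 4 probe sets Hspa8 no longer passed (-0.23, adjusted p = 0.433). In aged mice 4 of the 53 passed, none against the sign of the brightest.

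**Figure D2:**
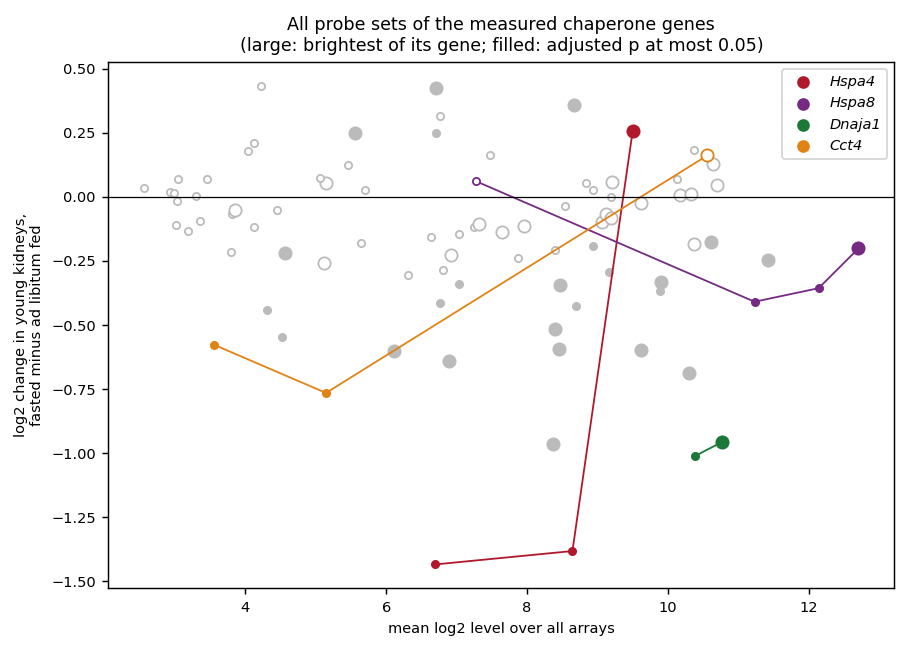
Change with fasting in young mice (log2 level in fasted minus ad libitum fed mice, vertical axis) against the mean log2 level over all arrays (horizontal axis) for every probe set of the measured chaperone genes. Large symbols are the brightest probe set of a gene and filled ones have an adjusted p of at most 0.05; the dimmer probe sets of Hspa4 (red) lie at -1.38 and -1.43 and its brightest at 0.26.

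Hsp90aa1, the inducible cytosolic HSP90 and the measured one of the 2 listed HSP90 genes, was 10.44, 10.05, 10.65 and 10.22 in young fasted mice, against 11.40, 10.91, 10.90, 11.02 and 10.93 in young ad libitum fed mice. The groups did not overlap and it fell by 0.69 ± 0.13 (SE; adjusted p = 0.00337 by limma), to 0.621 of the ad libitum fed level. In aged mice it was 9.62, 10.11, 9.64, 10.04 and 10.16 after fasting, against 9.81, 10.33, 10.18, 9.11 and 10.27 in ad libitum fed mice. The aged groups overlapped (-0.03 ± 0.21, adjusted p = 0.969), and 1 ad libitum fed mouse, mouse40, held the lowest value.

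Hspe1, the HSP10 lid of the mitochondrial folding chamber, was 11.49, 11.39, 11.39 and 11.42 in young fasted mice, against 11.76, 11.63, 11.67, 11.73 and 11.56 in young ad libitum fed mice. It fell by 0.25 ± 0.06 without overlap (adjusted p = 0.0117 by limma). In aged mice it was 11.11, 11.23, 11.23, 11.25 and 11.30 after fasting, against 11.15, 11.43, 11.31, 11.42 and 11.40 in ad libitum fed mice (-0.12 ± 0.07, adjusted p = 0.432). With the mean of its 2 probe sets the aged change was -0.21 and passed (adjusted p = 0.0377).

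The 3 small heat shock proteins measured, Hspb1, Hspb8 and Cryab, passed in neither age, also at an unadjusted p under 0.05. Hspb1, which also binds actin filaments, was 8.00, 9.15, 7.49, 9.02 and 9.19 in aged fasted mice, against 8.30, 8.32, 8.20, 8.04 and 8.22 in aged ad libitum fed mice. The fasted values enclosed all ad libitum fed ones (0.35 ± 0.29, adjusted p = 0.587 by limma). In young mice Hspb1 was 7.97, 7.22, 7.17 and 7.22 after fasting, against 8.01, 7.39, 7.48, 7.20 and 7.47 in ad libitum fed mice (-0.11 ± 0.19, adjusted p = 0.760).

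Cryab, the αB-crystallin, was 8.80, 10.25, 8.40, 10.15 and 10.17 in aged fasted mice, against 10.20, 9.95, 9.90, 9.84 and 10.09 in aged ad libitum fed mice. The ad libitum fed mice lay close together while the fasted mice spanned 1.85 (-0.44 ± 0.32, adjusted p = 0.535 by limma). In young mice it was 9.81, 9.41, 9.02 and 9.52 after fasting, against 9.55, 9.45, 9.28, 9.68 and 9.37 in ad libitum fed mice (-0.02 ± 0.14, adjusted p = 0.940). Hspb8, a partner of Bag3, changed by 0.14 ± 0.10 in aged and 0.06 ± 0.11 in young mice.

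J-domain proteins hand clients to HSP70 and start its ATP cycle. Of the 9 measured, 5 fell and 1 rose in young fasted mice, where 12.5% of all genes fell and 10.7% rose. In aged fasted mice 1 rose, where 4.32% of all genes did. Dnaja1, a farnesylated cytosolic member, was 10.28, 10.42, 10.52 and 10.37 in young fasted mice, against 11.67, 11.23, 11.25, 11.21 and 11.42 in young ad libitum fed mice. The gap between the groups was larger than the range within either of them, and Dnaja1 fell by 0.96 ± 0.10 (SE; adjusted p = 5.15e-05 by limma), to 0.516 of the ad libitum fed level. In aged mice it was 10.19, 10.68, 10.20, 10.64 and 10.72 after fasting, against 10.80, 10.81, 10.93, 10.52 and 10.85 in ad libitum fed mice. There 4 of the 5 ad libitum fed mice lay above all fasted mice and the change of -0.29 ± 0.12 did not pass (adjusted p = 0.212). The second probe set of Dnaja1 fell in both ages, by 0.42 ± 0.08 in aged (adjusted p = 0.00565) and 1.01 ± 0.09 in young mice (adjusted p = 2.47e-05).

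Dnaja4 was 6.14, 6.36, 6.36 and 6.58 in young fasted mice, against 7.05, 7.04, 7.02, 6.84 and 6.85 in young ad libitum fed mice. It fell by 0.60 ± 0.09 without overlap (adjusted p = 0.00072 by limma). In aged mice Dnaja4 was 5.00, 5.60, 5.09, 5.50 and 5.76 after fasting, against 5.93, 5.55, 5.92, 5.69 and 5.82 in ad libitum fed mice, and did not pass (-0.39 ± 0.14, adjusted p = 0.138).

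Dnajb1, the J-domain partner of inducible HSP70 that is itself induced by heat, was 7.66, 7.95, 8.16 and 7.97 in young fasted mice, against 8.50, 8.58, 8.50, 8.49 and 8.56 in young ad libitum fed mice. The ad libitum fed mice lay close together and well above the fasted ones, and Dnajb1 fell by 0.59 ± 0.09 (SE; adjusted p = 0.00061 by limma). In aged mice it was 8.23, 8.89, 8.26, 8.88 and 8.59 after fasting, against 8.53, 8.74, 8.90, 8.57 and 8.68 in ad libitum fed mice (-0.12 ± 0.14, adjusted p = 0.737).

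Dnajb4 was the one member that rose in both ages. It was 8.30, 8.91, 8.37, 8.79 and 8.87 in aged fasted mice, against 8.32, 8.24, 8.15, 7.93 and 8.23 in aged ad libitum fed mice. In young mice it was 9.06, 9.07, 9.31 and 9.16 after fasting, against 8.74, 8.70, 8.92, 8.73 and 8.88 in ad libitum fed mice. Dnajb4 rose by 0.47 ± 0.13 in aged (adjusted p = 0.0472) and 0.36 ± 0.07 in young mice (adjusted p = 0.00544 by limma). The aged call was lost without any 1 of the 5 aged ad libitum fed mice and without mouse38, 41 or 42, with adjusted p between 0.0592 and 0.121. Dnaja2 and Dnajb5 fell by 0.17 and 0.22 in young mice (adjusted p = 0.0488 and 0.0470), and these calls were lost without most single young arrays, with adjusted p of up to 0.105 and 0.124. Dnajb6 lay just outside the threshold in young mice (-0.18 ± 0.06, adjusted p = 0.0521) at its brightest probe set, while a dimmer one rose by 0.25 ± 0.07 (adjusted p = 0.0339), and Dnaja3 and Dnajb2 changed by -0.07 and -0.11.

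Of the 4 co-chaperones measured, Stip1, Ahsa1 and Chordc1 fell and Bag3 rose in young mice, where 12.5% of all genes fell and 10.7% rose. Chordc1, an HSP90-binding protein with zinc-binding CHORD domains, was 8.07, 8.03, 8.26 and 7.98 in young fasted mice, against 9.33, 9.02, 9.04, 8.93 and 8.93 in young ad libitum fed mice. At the brightest probe sets it had the largest fall of the 36 genes, by 0.97 ± 0.09 (SE; adjusted p = 3.1e-05 by limma), to 0.512 of the ad libitum fed level. In aged mice Chordc1 was 7.85, 8.24, 7.51, 8.20 and 8.52 after fasting, against 8.19, 8.19, 8.37, 7.95 and 8.53 in ad libitum fed mice. These values overlapped (-0.18 ± 0.17, adjusted p = 0.650).

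Stip1, the adaptor that bridges HSP70 and HSP90, was 6.76, 7.06, 6.99 and 6.89 in young fasted mice, against 7.70, 7.76, 7.65, 7.37 and 7.35 in young ad libitum fed mice. It fell by 0.64 ± 0.10 without overlap (adjusted p = 0.00102 by limma). In aged mice Stip1 was 6.33, 6.42, 6.31, 6.64 and 6.62 after fasting, against 6.61, 6.78, 6.77, 6.44 and 6.58 in ad libitum fed mice (-0.17 ± 0.09, adjusted p = 0.363).

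Ahsa1, which speeds up the ATPase of HSP90, was the one member that fell in both ages at its brightest probe set. It was 8.12, 8.22, 8.00, 8.24 and 8.43 in aged fasted mice, against 8.43, 8.61, 8.57, 8.57 and 8.62 in aged ad libitum fed mice. It fell by 0.35 ± 0.08 (adjusted p = 0.0223 by limma). In young mice it was 8.14, 8.21, 8.07 and 8.15 after fasting, against 8.83, 8.78, 8.68, 8.44 and 8.57 in ad libitum fed mice, and fell by 0.52 ± 0.08 (adjusted p = 0.00106). The aged call was lost without mouse36, 37, 43 or 39, with adjusted p between 0.0520 and 0.0572. The second probe set of Ahsa1 was dim, with a mean level of 4.12 over all arrays, against 8.40 for the brightest. It changed by -0.06 in aged and 0.21 in young mice and passed in neither. With the mean of its 2 probe sets Ahsa1 passed in neither age (-0.21 in aged and -0.15 in young mice). Read in that way, 3 other members fell in both ages. Dnaja1 fell by 0.36 in aged (adjusted p = 0.0306) and 0.98 in young mice (adjusted p = 1.57e-05), Hspe1 by 0.21 (adjusted p = 0.0377) and 0.34 (adjusted p = 0.00368), and Cct3 by 0.23 (adjusted p = 0.0413) and 0.25 (adjusted p = 0.0107).

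Bag3, a nucleotide exchange factor that steers HSP70 clients to autophagy, was 7.06, 7.01, 7.10 and 7.35 in young fasted mice, against 6.46, 6.75, 6.84, 6.82 and 6.64 in young ad libitum fed mice. All fasted mice lay above all ad libitum fed mice and Bag3 rose by 0.43 ± 0.09 (SE; adjusted p = 0.00749 by limma). In aged mice Bag3 was 6.43, 6.85, 6.53, 6.97 and 6.53 after fasting, against 6.75, 6.37, 6.62, 5.95 and 6.48 in ad libitum fed mice (0.23 ± 0.15, adjusted p = 0.459). The aged groups overlapped, with the lowest value in ad libitum fed mouse40.

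**Figure D3:**
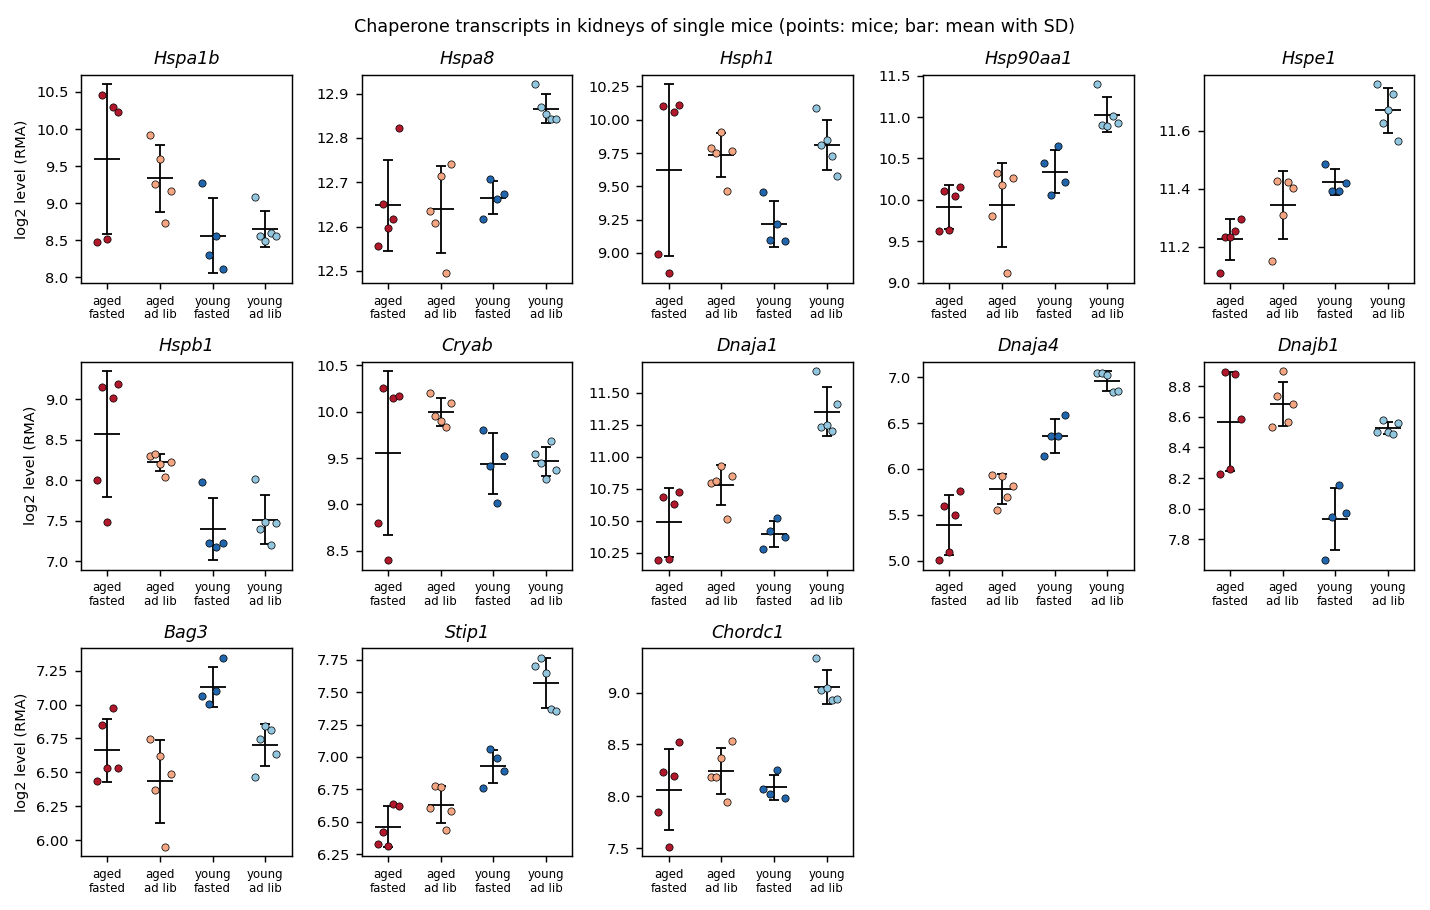
Levels of 13 chaperone genes (log2 RMA values, vertical axes with a range of their own and not starting at 0) in every mouse, by group, with the mean and SD. In young mice the fasted and ad libitum fed points of Hsp90aa1, Dnaja1, Dnaja4, Dnajb1, Stip1 and Chordc1 do not overlap, while the aged fasted points of Hspa1b, Hsph1, Hspb1 and Cryab fall on both sides of the aged ad libitum fed points.

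Of the 7 measured subunits of the TRiC complex 1, Cct3, fell in young mice, where 12.5% of all genes did. Cct3 fell by 0.33 ± 0.06 (adjusted p = 0.00202 by limma) and none of the other 6 passed at its brightest probe set in either age. Cct3 changed by -0.25 ± 0.07 in aged mice (adjusted p = 0.0554), with all fasted below all ad libitum fed mice, and a further probe set of it fell by 0.33 ± 0.06 there (adjusted p = 0.00555). Cct2, Cct5, Cct7, Cct8 and Tcp1 changed by 0.05, 0.01, 0.06, -0.08 and 0.01 in young mice. Hsf2, a heat shock factor active in development, had low levels and changed by 0.05 ± 0.09 in aged and -0.05 ± 0.07 in young mice.

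Whether fasting acted differently at the 2 ages was tested as the difference of the fasting effects, aged minus young, in one fit of the 4 groups. The difference was above 0 for 27 of the 36 genes (8568 of all 17097), with a median of 0.11, against 0.00 over all genes. It passed for 1 gene, Dnaja1 (0.66 ± 0.17, adjusted p = 0.0429 by limma), while 1.55% of all genes had a positive and 0.895% a negative difference that passed. Hspa13 (0.35 ± 0.09, adjusted p = 0.0583) and Chordc1 (0.79 ± 0.21, adjusted p = 0.0584) lay just outside the threshold and Stip1 (0.47 ± 0.14, adjusted p = 0.0913) further out. For Hsp90aa1, with a difference of 0.66 ± 0.27, for Dnajb1, with 0.48 ± 0.17, and for Hsph1, with 0.48 ± 0.30, adjusted p was 0.268, 0.194 and 0.530. So for most genes that fell in young and did not pass in aged mice, the effects were not shown to differ.

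The Dnaja1 call lay close to the threshold and was lost without any 1 of mouse34, 36, 40 and 43 (aged ad libitum fed), mouse38, 41 and 42 (aged fasted), mouse346, 347, 348 and 350 (young ad libitum fed) or mouse339, 340 and 344 (young fasted), with a difference of 0.58 to 0.69 and adjusted p of 0.0515 to 0.0839. Its second probe set gave 0.59 (adjusted p = 0.0148). Without aged fasted mouse33 the difference passed for Dnaja1, Hspa13 and Chordc1, and without mouse39 that of Chordc1 was 0.92 (adjusted p = 0.00984). The dimmer probe sets of Hspa4 gave differences of 1.02 (adjusted p = 0.0048) and 1.32 (adjusted p = 0.102).

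The aged fasted mice varied among themselves in a way that many chaperone genes shared. Mouse33 and mouse39 both lay below mouse38, 41 and 42 for 18 of the 36 genes, among them Hspa1b, Hsph1, Hsp90aa1, Hspb1, Cryab, Dnaja1, Dnaja4, Dnajb1, Dnajb4 and Chordc1. Over all genes the same was true of 2265 of 17097 (13.2%). The gap between these mice was 1.72 for Hspa1b, 1.34 for Cryab, 1.07 for Hsph1 and 1.02 for Hspb1. These mice were singled out after their values were seen, so the count is a description and was not tested. For Hspa2, Hspa4, Hspa9, Hspe1 and the TRiC subunits other than Cct3 the same mice did not both lie below the others.

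Some other transcripts also set mouse33 and mouse39 apart, and others did not. Among aged fasted mice the means of the proximal tubule, endothelial and macrophage markers were lowest in mouse38, at 10.71, 7.25 and 4.98. The mean of the immediate early genes was lowest in mouse42, at 5.75. For the red cell markers mouse33 had the highest mean, at 8.91, and mouse39 the lowest, at 8.25. Aqp2, the vasopressin-regulated water channel of the collecting duct, was 8.08, 8.78, 7.24, 8.70 and 8.63 in aged fasted mice, against 9.16, 8.83, 9.00, 8.34 and 8.75 in aged ad libitum fed mice. The mean of the 4 collecting duct markers was 7.95, 8.21, 7.50, 8.13 and 8.01 in aged fasted mice and lay between 7.86 and 8.29 in aged ad libitum fed mice. The mean of the 4 genes that respond to high tonicity was 6.19, 6.40, 6.16, 6.47 and 6.34 in aged fasted mice, lowest in mouse33 and mouse39, and 5.81 to 6.20 in aged ad libitum fed mice. The mean of the 2 markers of the thick ascending limb was 11.94, 12.03, 11.94, 12.12 and 12.15 in aged fasted mice, again lowest in both, and 11.89 to 12.06 in aged ad libitum fed mice. Alb, a liver transcript, was 12.58, 5.41, 7.09, 7.33 and 6.61 in aged fasted mice, so that mouse33 alone was high, against 8.86, 6.21, 5.50, 8.43 and 5.84 in aged ad libitum fed mice. The mean of the 4 liver markers was 11.02 in mouse33 and 8.02 to 8.64 in the other aged fasted mice. The part of these differences in the chaperone values was not tested. Without mouse33 the counts for aged mice were the same, with 1 gene that rose and 1 that fell. Among the aged ad libitum fed mice mouse40 stood lower than the rest, being the lowest of its group for 19 of the 36 genes with a median deviation of -0.14 from the group mean, while mouse33 and mouse39 were the lowest of theirs for 13 and 11. Without mouse40 no chaperone gene rose and 1 fell in aged mice, and none had a difference between the ages that passed.

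**Figure D4:**
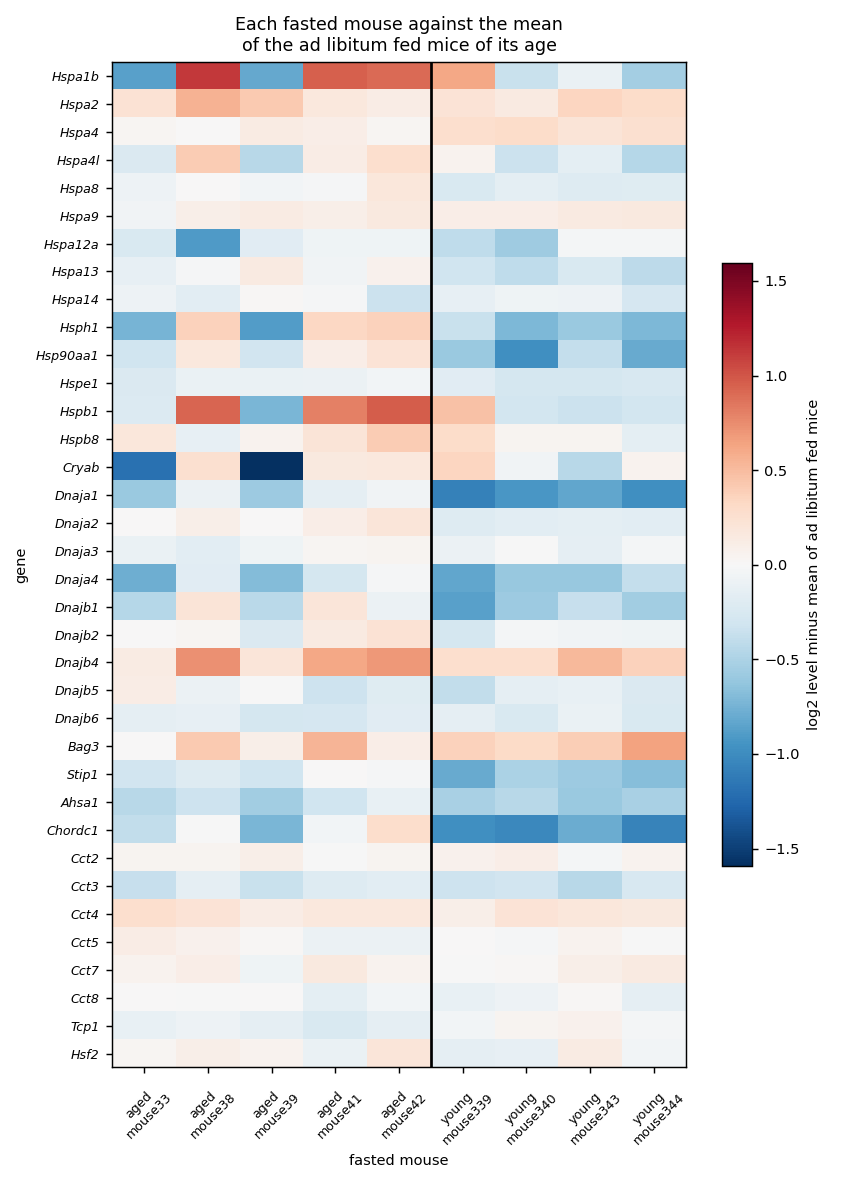
Level of each measured chaperone gene (rows) in every fasted mouse (columns) minus the mean of the ad libitum fed mice of its age, on a log2 scale (red above, blue below). Aged mouse33 and mouse39 are blue for Hspa1b, Hsph1, Hspb1 and Cryab where the other aged fasted mice are red, and all 4 young fasted mice are blue for Hsp90aa1, Dnaja1, Dnajb1, Stip1 and Chordc1.

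Markers of cell types and of tissue handling also moved with fasting in young mice. For comparison, 10.7% of all genes rose and 12.5% fell in young mice, and 4.84% fell in aged mice. Of 7 immediate early genes, which are switched on within minutes by stress or handling, 5 rose in young fasted mice, among them Egr1 (1.90 ± 0.53, adjusted p = 0.0254 by limma), and their mean lay between 5.72 and 6.77 in young fasted kidneys, against 5.10 and 5.90 in ad libitum fed ones. Of 5 macrophage markers 4 fell (means of 5.02 to 5.37 in fasted and 5.67 to 6.09 in ad libitum fed kidneys), and both red cell markers fell. All 3 proximal tubule markers fell in both ages, with means of 10.7 to 10.9 in fasted against 11.3 to 11.6 in ad libitum fed kidneys of aged mice, and of 9.75 to 10.1 in fasted against 10.3 to 10.8 in ad libitum fed kidneys of young mice. Of 4 collecting duct markers Aqp2 fell in young mice (by 0.53 ± 0.15), and of 4 genes that respond to high tonicity Nfat5 and Slc6a6 rose. Of 4 liver markers Serpina1a and Apoh rose by 1.38 and 0.68 and Ttr fell by 1.04 in young mice, with means of 9.55 to 9.99 in fasted and 9.15 to 9.82 in ad libitum fed kidneys. Of 3 endothelial markers Kdr fell by 0.27 in young mice, and of 3 adipocyte markers Cidea rose. Of 5 skeletal muscle markers Mylpf rose by 0.41 and Ckm fell by 0.24 in young mice, with list means near 3 in aged and at most 3.54 in young mice. The part of these in the fall of the chaperones was not tested.

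Further chaperone genes outside the 41 were read from lists of partner genes, 58 of them with a value. In young fasted mice 10 of the 58 fell and 8 rose, and in aged fasted mice 8 fell and 3 rose. The shares over all genes were 12.5% that fell and 10.7% that rose in young mice. In aged mice they were 4.84% and 4.32%, and these shares also stand beside the counts of the single lists below. Of 12 further HSP90 partners 5 fell and 1 rose in young and 3 fell in aged mice. Ahsa2, a relative of Ahsa1, was 7.06, 7.10, 7.34 and 7.19 in young fasted mice, against 8.32, 8.24, 8.30, 7.88 and 8.21 in young ad libitum fed mice. It fell by 1.01 ± 0.10 (adjusted p = 3.16e-05 by limma). In aged mice it changed by -0.26 ± 0.15, and the difference between the ages passed (0.75, adjusted p = 0.0469). Rpap3, which links HSP90 to the assembly of RNA polymerase, fell by 0.53 ± 0.10 in aged and 0.61 ± 0.08 in young mice. Pih1d1 and Ttc4 fell by 0.36 and 0.43 in young mice.

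Of 10 further HSP70 partners 2 rose in young mice, and 1 rose and 1 fell in aged mice. Bag2, which restrains the ubiquitin ligase CHIP, was 5.60, 5.98, 6.11, 5.98 and 5.94 in aged fasted mice, against 4.74, 4.33, 4.66, 4.62 and 4.54 in aged ad libitum fed mice. In young mice it was 7.53, 7.27, 7.04 and 6.99 after fasting, against 6.29, 6.16, 6.25, 6.26 and 5.91 in ad libitum fed mice. Bag2 rose without overlap in both ages, by 1.34 ± 0.10 in aged (adjusted p = 9.84e-06) and 1.04 ± 0.11 in young mice (adjusted p = 9.36e-05 by limma). Stub1, which encodes CHIP, fell by 0.32 ± 0.07 in aged mice (adjusted p = 0.0129) and changed by 0.01 ± 0.07 in young mice, and St13 rose by 0.22 ± 0.06 in young mice.

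Of 11 further J-domain genes 3 fell and 3 rose in young mice, and 3 fell and 2 rose in aged mice. Dnajc2, the J-domain protein of the ribosome, fell by 0.45 ± 0.07 in aged and 0.39 ± 0.05 in young mice, Dnajc6, which uncoats clathrin vesicles, by 0.59 and 0.57, and Dnajc13 by 0.36 and 0.26. Dnajc7 rose by 0.36 in aged and 0.47 in young mice. Of 9 prefoldin and related genes Pfdn2 rose and Pfdn1 fell in young mice, and of 7 mitochondrial chaperone genes Grpel1 rose in young mice. None of 5 further small heat shock genes passed. Of 4 genes of heat shock factors and their binding proteins, Hsf2bp, which binds HSF2, fell in both ages. It fell by 1.55 ± 0.14 in aged mice and fell by 2.34 ± 0.13 in young mice. Hsf2bp was already among the strongest changes known in these data when the list was written.

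Chaperones of the endoplasmic reticulum, which have their own stress sensors, fell in young mice as well. Of 10 measured, 6 fell and none rose in young fasted mice, with a median change of -0.50, and 1 fell and 1 rose in aged fasted mice, with a median change of -0.07. Among all genes 12.5% fell and 10.7% rose in young mice, and 4.84% fell and 4.32% rose in aged mice. The median change over all genes was -0.01 in each age. Hspa5, the HSP70 of this compartment, was 10.99, 11.01, 11.13 and 11.06 in young fasted mice, against 11.81, 11.64, 11.75, 11.55 and 11.47 in young ad libitum fed mice. It fell by 0.60 ± 0.08 without overlap (adjusted p = 0.000234 by limma) and changed by 0.08 ± 0.18 in aged mice. Hsp90b1 fell by 0.53 ± 0.06 and Dnajb11 by 0.86 ± 0.06 in young mice, and Dnajb11 fell by 0.59 ± 0.13 in aged mice too. Sdf2l1 fell by 1.21 ± 0.16 in young mice and changed by -0.06 ± 0.19 in aged mice, and its difference between the ages passed (1.15, adjusted p = 0.0334).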

How the data were processed

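Kidney RNA of 19 mice, grouped by the age and feeding protocol in the labels, was run on arrays of type Affymetrix HT MG-430 PM, 1 per mouse. The deposited log2 values of 45141 probe sets were made by the authors with the RMA algorithm in an online pipeline, whose versions are not given in the sources used here, which corrects background and forces arrays to one distribution; array medians differ between the ages, so that these seem to have been normalized apart. The number of arrays limits the precision. Gene names came from a platform annotation in the reference files (28898 with 1 gene symbol, 551 with several and 15692 not listed).

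Fasted and ad libitum fed mice were compared with limma 3.58.1 in R 4.3.3, for aged and young arrays apart and, for the difference between fasting effects, in one fit of the 4 group means. P values were adjusted by Benjamini-Hochberg over all probe sets. The study used an ordinary ANOVA, tried here as an alternative. Scripts were tested on simulated data. The members and lists were chosen with earlier results of these data known. Values in every mouse are given for 12 genes fixed by name, as far as measured, and members passing at 1.5-fold or for the difference between the ages, 13 in all; further lists are given with up to 4 genes each with the smallest adjusted p. Values in every mouse of Dnajb4, Ahsa1, Ahsa2, Bag2, Hspa5, Alb and Aqp2 were added after seeing the data.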

Additional observations from a re-analysis of the deposited data

Results flagged for a closer look

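Each measured chaperone gene was examined in each group for a mouse far from the others, by the gap to its neighbour as a share of the whole range (Dixon's criterion). Of 144 such sets 14 were marked, where chance marks about 1 in 20. The sets are not independent, because each mouse enters those of all measured genes, so the count was not tested against that share. In aged fasted mice Hspa12a was lowest in mouse38 at 3.80. In aged ad libitum fed mice Hspa9 was lowest in mouse40 at 10.11, Ahsa1 in mouse34 at 8.43 and Tcp1 in mouse43 at 10.00. In young fasted mice mouse339 had the highest Hspb1 at 7.97 and the lowest Dnajb2 at 7.09. In young ad libitum fed mice mouse346 had the highest Hspa1b at 9.09, Hsp90aa1 at 11.40 and Chordc1 at 9.33, and mouse349 the lowest Cct5 at 10.32, Cct8 at 9.14 and Tcp1 at 10.45. In the same group Hspa2 was highest in mouse350 at 4.62 and Hsf2 in mouse347 at 4.60. The falls of Hsp90aa1 and Chordc1 in young mice kept their side of the threshold without mouse346.

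The fasting effect on Dnaja1 differed between aged and young mice by a test of the difference itself, by 0.66 on the log2 scale (aged minus young), with a change of -0.29 in aged and -0.96 in young mice.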

How the results depend on the processing

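Of the alternatives run for the 13 genes given in every mouse, 767 of 793 kept their side of the threshold. Another 17 no longer passed and 9 passed where they had not. None changed sign where either value passed. Changes that did not pass could change sign, such as that of Hspa8 in aged mice, 0.01 at its brightest probe set and -0.14 with the mean of its probe sets. The counts of chaperone genes were 14 that fell and 4 that rose in young mice, 1 and 1 in aged mice, and 1 with a difference between the ages. With an ordinary ANOVA the last count was 0. With all arrays in one fit 3 genes rose and 3 fell in aged mice, and with a variance trend and robust fitting 2 rose and 2 fell. The count that fell in aged mice was 2 with array weights, with median centring and after removal of the dimmest 40 percent of probe sets, and 3 with the mean of the probe sets of a gene; the count with a difference was then 3, 3, 2 and 3. At an adjusted p of at most 0.01 all aged and difference counts were 0, and with a fold minimum of 1.5 the young counts were 7 that fell and 0 that rose and the aged counts 0. Leaving out each mouse in turn gave 12 to 13 that fell and 3 to 4 that rose in young mice, 0 to 1 for both directions in aged mice, and 0 to 3 for the difference. Quantile normalization within each age moved no count by over 1.5 times. Why these counts moved was not tested, except that stricter thresholds can only lower them. No paired analysis was possible because the labels name no pairs of mice. The paper matched mice in pairs by body weight and sex before diets were assigned, and does not state whether this held for the arrayed mice. The number of arrays and the spread of the aged fasted mice limit what can be seen in aged kidneys.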
